A study of Mus musculus with 4 samples.

Results

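Integrins, the hyaluronan receptor CD44 and the immunoglobulin-family protein embigin are surface molecules by which T cells hold on to matrix and to other cells. The transcripts of 9 such genes were followed through thymic invariant natural killer T (iNKT) cells: the alpha chains Itga4, Itgae, Itgal and Itga1, the beta chains Itgb1, Itgb2 and Itgb7, and Cd44 and Emb. They were taken by gene symbol from the 31053 genes of the count tables, and all 9 were found. Single-cell RNA-seq libraries came from 2 C57BL/6 mice and 2 Hivep3-/- mice (labelled Hivep3 knockout, on the C57BL/6 strain), 8 to 9 weeks old and untreated, each library from 1 mouse. In all 4, thymocytes that bound the PBS57-CD1d tetramer were enriched on magnetic beads and sorted as an equal mix of CD44low and CD44high cells. The sort therefore used CD44 protein, and it set in part how many cells of each stage were captured. HIVEP3 is a large zinc finger protein, and the comparison of genotypes asks how its loss affects iNKT cell development.

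iNKT cells carry a semi-invariant T cell receptor that sees lipids on CD1d. They pass from a CD24-positive, CD44low precursor (stage 0) through a cycling phase into iNKT2 cells, which make IL-4, iNKT17 cells, which make IL-17, and iNKT1 cells, which make interferon gamma and carry natural killer receptors. An integrin is a pair of an alpha and a beta chain, and the pair decides what is bound. Itga4 encodes the alpha chain that with Itgb1 forms VLA-4, a receptor for VCAM-1 and fibronectin, and with Itgb7 a receptor for the gut addressin MAdCAM-1. Itgae (CD103) pairs with Itgb7 and binds E-cadherin. Itgal (CD11a) pairs with Itgb2 (CD18) into LFA-1, which binds ICAM-1, and Itga1 (CD49a) pairs with Itgb1 into a collagen receptor. CD44 is the standard marker of activated and memory-like T cells, and embigin is a partner of monocarboxylate transporters that also favours integrin-dependent adhesion.

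The genes lie apart in the genome (GRCm38, GENCODE vM21 models). The alpha chains are Itga4 (ENSMUSG00000027009, chr2:79255426-79333123, plus strand), Itgae (ENSMUSG00000005947, chr11:73090583-73147446, plus), Itgal (ENSMUSG00000030830, chr7:127296260-127335138, plus) and Itga1 (ENSMUSG00000042284, chr13:114953096-115101964, minus). The beta chains are Itgb1 (ENSMUSG00000025809, chr8:128685654-128733200, plus), Itgb2 (ENSMUSG00000000290, chr10:77530252-77565708, plus) and Itgb7 (ENSMUSG00000001281, chr15:102215995-102231944, minus). Cd44 (ENSMUSG00000005087) lies at chr2:102811141-102901665 on the minus strand and Emb (ENSMUSG00000021728) at chr13:117208536-117274415 on the plus strand. Pelo and Gm49395 lie within the Itga1 span on its strand, so reads in the shared part cannot be assigned with certainty. Cerkl overlaps Itga4, Haspin overlaps Itgae, Gm10734 overlaps Itga1 and Gm17509 overlaps Emb, each on the opposite strand; whether the counting used strand was not given in the sources used here.

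The 250 bases before the start site are shown for the 3 genes that passed a genotype test in at least 1 class (Itga4, Emb and Itgb1, described further on). They are RefSeq sequence of GRCm38.p6, on the strand of the gene, written 5′ to 3′ in lower case, with matches to 3 motifs in capitals: the RUNX core TGTGGT, the E-box CACCTG and an NF-kB-type motif (GGG and TCC with 4 free bases between), each searched on both strands with no overlaps among the matches shown. Of the 9 genes, 6 had an entry in the RefSeq table, and Itgae, Itgal and Itgb2 did not.
Itga4 (chr2:79255176-79255425, plus): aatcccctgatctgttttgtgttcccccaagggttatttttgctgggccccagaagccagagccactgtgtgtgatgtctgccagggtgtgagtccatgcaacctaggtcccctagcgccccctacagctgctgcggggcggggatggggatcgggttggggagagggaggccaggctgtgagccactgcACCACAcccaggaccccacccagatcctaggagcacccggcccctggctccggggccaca
Emb (chr13:117220323-117220572, plus): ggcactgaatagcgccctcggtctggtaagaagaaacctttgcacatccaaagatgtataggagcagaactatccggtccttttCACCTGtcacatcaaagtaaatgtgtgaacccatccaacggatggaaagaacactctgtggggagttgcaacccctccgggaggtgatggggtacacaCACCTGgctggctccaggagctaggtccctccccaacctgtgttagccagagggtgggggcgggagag
Itgb1 (chr8:128685404-128685653, plus): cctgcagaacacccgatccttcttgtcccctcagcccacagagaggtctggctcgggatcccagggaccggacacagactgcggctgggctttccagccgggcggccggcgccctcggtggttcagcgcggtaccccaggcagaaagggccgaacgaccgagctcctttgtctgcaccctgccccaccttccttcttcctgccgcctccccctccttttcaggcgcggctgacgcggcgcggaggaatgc
The Itga4 window held 1 RUNX core, read on the opposite strand as ACCACA from position -60. The Emb window held 2 E-boxes, from positions -166 and -68, and its RefSeq start lies inside the longer GENCODE gene. The Itgb1 window held none of the 3. Over 32851 promoter windows of this length, 14.0% held the RUNX core, 17.2% the E-box and 16.5% the NF-kB-type motif. The GC content of the windows was 64.0% for Itga4, 54.8% for Emb and 68.0% for Itgb1, where the median over all windows was 52.4%.

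The libraries held 4243 to 8374 cell barcodes and 31381738 to 48291764 UMIs (unique molecular identifiers, which count captured RNA molecules). After the cell filter, 19647 cells were kept. The median kept cell held 4596 and 5268 UMIs for C57BL/6 and 6833 and 6491 for Hivep3-/-. Between 111 and 165 barcodes of each library also occurred in another. C57BL/6 replicate 1 had 17330 Xist UMIs and 0 from Y-linked genes, while the other libraries had 3 to 25 Xist UMIs and 4107 to 5590 Y-linked UMIs, so the sexes were not balanced between the genotypes. Hivep3 itself gave 2055 and 1277 UMIs in C57BL/6 and 4459 and 2578 in Hivep3-/- cells. The deleted part of the gene was not given in the sources used here, so this count checks no label.

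Clustering that left out the 9 genes and a wider list of adhesion genes gave 14 clusters. They were gathered into stage 0-like, cycling-like, iNKT2-like, iNKT17-like and iNKT1-like classes from marker genes, and 5 clusters stayed unnamed. All levels below are counts-per-million values (CPM), the UMIs of a gene relative to all UMIs of a library's cells in a class, with those totals scaled by TMM (trimmed mean of M-values) factors, and each pair of values gives replicate 1 and then replicate 2. Levels of Pelo and summed levels of marker lists are CPM of the plain totals, without these factors. A level can be compared between classes or genotypes for 1 gene, not between genes. Because classes were built from the same cells, the levels by class are a description without a test.

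The alpha chains followed different courses through the C57BL/6 classes. Itgae was nearly absent from stage 0-like cells, at 1.74 and 2.41 CPM, stood at 42.5 and 33.0 in cycling-like cells and 118 and 106 in iNKT2-like cells, and was highest in iNKT17-like cells (239 and 226) and iNKT1-like cells (242 and 230.3). The last classes overlapped and the others were separate. The span between its highest and lowest class mean was 114-fold, on 5 UMIs in all in the stage 0-like cells.

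Among the named classes Itga1 was detected almost wholly in iNKT1-like cells, with levels of 91.7 and 98.3 CPM there. In the other named classes of the C57BL/6 libraries it was between 0 and 3.13, and these classes overlapped. The unnamed clusters 3, 4, 7 and 8 had 23.4 and 14.8, 40.4 and 44.0, 16.15 and 13.99, and 44.9 and 38.3 CPM in C57BL/6. A single Itga1 UMI was counted in the stage 0-like cells of all 4 libraries, and 0 UMIs in 3 of them, which allows up to 0.984 to 1.74 CPM. Pelo, whose gene lies in the same span, was at 18.3 and 14.1 in C57BL/6 iNKT1-like cells and at 16.3 and 16.99 in Hivep3-/- cells.

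Itgal varied the least among the alpha chains. It was at 78.5 and 92.8 in stage 0-like cells, 89.3 and 99.4 in cycling-like cells, 137 and 149.6 in iNKT2-like cells, 169.5 and 222 in iNKT1-like cells and 209.6 and 233 in iNKT17-like cells. Its span was 2.58-fold. The stage 0-like and cycling-like classes overlapped, and so did the iNKT1-like and iNKT17-like classes.

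Itga4 was close to even across the C57BL/6 classes other than the iNKT17-like. Its span of 4.92-fold was that from the stage 0-like to the iNKT17-like class, which had 4 and 2 Itga4 UMIs. Its levels were 12.8 and 12.1 in stage 0-like cells, 7.98 and 10.2 in cycling-like cells, 8.79 and 9.88 in iNKT2-like cells, 11.3 and 13.4 in iNKT1-like cells and 3.13 and 1.92 in iNKT17-like cells. Stage 0-like cells could not be separated from iNKT1-like cells, nor cycling-like from iNKT2-like cells, and iNKT17-like cells were below all others.

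Among the beta chains, Itgb7 was at 6.39 and 2.41 in stage 0-like cells and at 201 and 187 in cycling-like cells. It reached 224 and 199 in iNKT2-like cells, 306 and 271 in iNKT1-like cells and 365 and 369 in iNKT17-like cells, a span of 83.5-fold. Only the cycling-like and iNKT2-like classes overlapped for Itgb7 among neighbours in C57BL/6.

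Itgb1, the partner of Itga1 and of Itga4, had its highest level in iNKT1-like cells, at 145 and 160.1. It was at 68.0 and 68.7 in stage 0-like cells, 48.8 and 48.2 in cycling-like cells, 41.3 and 46.8 in iNKT2-like cells and 32.1 and 23.1 in iNKT17-like cells, with no overlap between neighbouring classes. Itgb2, the LFA-1 beta chain, was the flattest of the 9 genes, with a span of 1.96-fold. Its levels were 191 and 169 in stage 0-like cells, 236 and 242.5 in cycling-like cells, 295 and 302 in iNKT2-like cells, 163 and 153 in iNKT17-like cells and 289 and 329 in iNKT1-like cells, where the iNKT2-like and iNKT1-like values overlapped.

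Cd44 transcript was ordered by class in the same way in both genotypes. C57BL/6 cells had 6.97 and 2.41 CPM in the stage 0-like class, 17.8 and 27.1 in the cycling-like, 29.3 and 43.3 in the iNKT2-like, 72.7 and 103 in the iNKT17-like and 164 and 149 in the iNKT1-like class, without overlap and with a span of 33.4-fold. In the Hivep3-/- libraries the same order held without overlap, from 0.984 and 2.12 in stage 0-like cells to 120.0 and 152.5 in iNKT1-like cells. CD44 protein was a gate of the sort, so the mix of cells behind these levels was set in part by it.

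Emb ran opposite to Itga1. It was at 506 and 499 in C57BL/6 iNKT17-like cells and at 5.70 and 1.995 in iNKT1-like cells, a span of 131-fold. Stage 0-like (105 and 111), cycling-like (108 and 97.4) and iNKT2-like cells (114 and 85.7) overlapped at an intermediate level. The share of cells with an Emb UMI, after every cell was reduced to 2000 UMIs, was 60.5% and 61.6% in C57BL/6 iNKT17-like cells against 1.08% and 0.307% in iNKT1-like cells (90.0%, 95.2%, 1.77% and 0.815% before thinning, with 5, 1, 217 and 46 shallower cells left out).

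**Figure D1:**
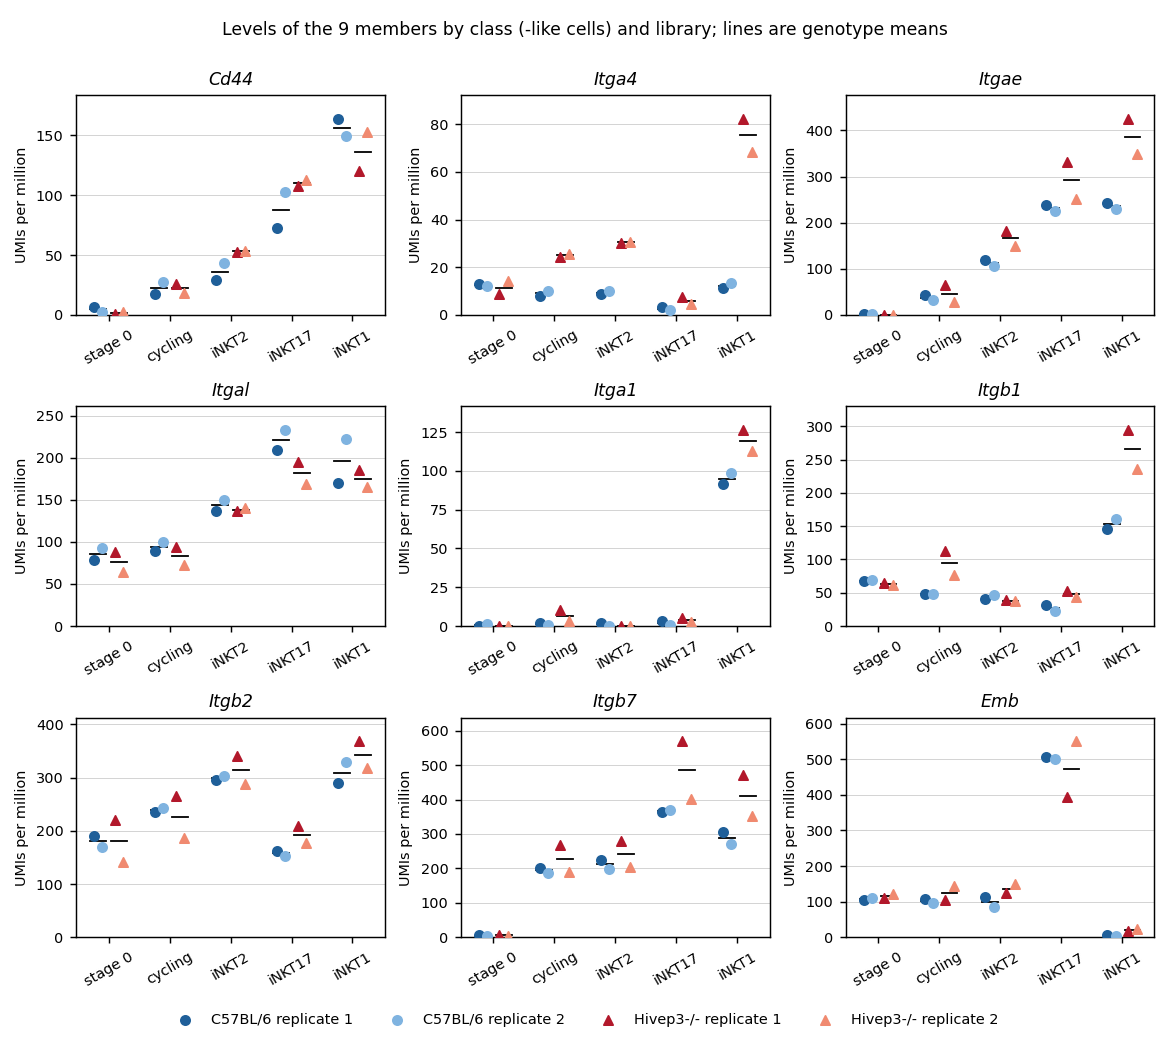
Level of each of the 9 genes in CPM (linear axes from 0) in the stage 0-, cycling-, iNKT2-, iNKT17- and iNKT1-like classes. Points are libraries, circles C57BL/6 and triangles Hivep3-/-, and lines are genotype means of 2 libraries. Among the classes shown Itga1 is near 0 outside the iNKT1-like class and Emb peaks in the iNKT17-like class. The Hivep3-/- points of Itga4 reach 82.2 and 68.3 in the iNKT1-like class where the C57BL/6 points lie at 11.3 and 13.4.

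By class mean, 8 of the 9 genes were highest in the same class in the Hivep3-/- libraries as in C57BL/6. Itga4 was the exception, with its highest mean in iNKT1-like cells. In C57BL/6 its stage 0-like mean (12.4) and iNKT1-like mean (12.3) lay close and their libraries overlapped, so its highest class there was not settled. The highest class of Itgae, Itgal and Itgb2 also overlapped the next class in C57BL/6. Over all 4 libraries 6 of the 9 genes had their highest mean in iNKT1-like cells (Cd44, Itga4, Itgae, Itga1, Itgb1 and Itgb2) and Itgal, Itgb7 and Emb in iNKT17-like cells. These classes were the same without TMM scaling, at both other cluster resolutions, with another cell filter and with the adhesion genes kept for clustering.

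The genotypes were compared in each class with edgeR's quasi-likelihood test on counts summed per library (2 against 2 libraries, two-sided, Benjamini-Hochberg adjustment over all genes tested, called below 0.05). Differences are log2 values of Hivep3-/- minus C57BL/6 with their standard error. The paper describes the libraries of each genotype as independent experiments, and the C57BL/6 libraries also differed in Xist and Y-linked UMIs. The p-values therefore measure a spread in which mouse, experiment and, for C57BL/6, sex cannot be told apart.

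In stage 0-like cells none of the 9 genes was called. Of them 6 had enough counts to be tested, 0 reached an unadjusted p below 0.05 and DESeq2 called 0 as well, where 0.364% of the 8790 genes tested in this class were called. Itga4 was at 12.8 and 12.1 in C57BL/6 and at 8.85 and 14.1 in Hivep3-/- cells, and the genotypes overlapped (log2 difference -0.12 ± 0.38, adjusted p = 0.967). Itgb1 (-0.11, adjusted p = 0.939) and Emb (0.11, adjusted p = 0.937) also gave no call with edgeR. The median log2 difference of the 6 genes was -0.05, beside 0.02 over all genes tested. Cd44, Itgae and Itga1 were too low to test in this class, at 1 to 12 Cd44 and Itgae UMIs per library.

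Itga4 and Itgb1 were higher in Hivep3-/- cycling-like cells, 2 of 9 genes called, where 3.29% of the 10399 genes tested were called. Itga4 was at 7.98 and 10.2 in C57BL/6 and at 24.5 and 25.7 in Hivep3-/- cells. The genotypes were clearly apart, by 1.52 ± 0.22 (adjusted p = 0.0132 with edgeR), and the call was kept in 15 of 16 alternative settings (adjusted p from 1.16e-07 to 0.0561). Itgb1 was at 48.8 and 48.2 against 112 and 76.1, a difference of 0.99 ± 0.21 (adjusted p = 0.0486 with edgeR).

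The Itgb1 call in cycling-like cells rested in part on a small cluster, numbered 13, which held 10 and 9 C57BL/6 and 25 and 16 Hivep3-/- cells, or 0.712% and 1.91% against 10.1% and 3.89% of the class. Of its 60 cells 16.7% were among those with the highest doublet scores, where the 5 largest clusters had 3.31% to 5.63% and cluster 7 had 18.96%. In that cluster Itgb1 reached 465 and 327 CPM in the Hivep3-/- libraries. A scaled level was not available for every library there, so the genotypes were not compared within the cluster. Without cluster 13 the Itgb1 difference was 0.59 and no longer called, while that of Itga4 was 1.31 and still called. The Itgb1 call was also lost without Hivep3-/- replicate 1, at 0.67, and without the cells of highest doublet score, at 0.93, and it was kept in 9 of 16 settings (adjusted p from 1.18e-05 to 0.224). Itga1 stood at 1.93 and 0.603 against 10.1 and 3.16 in the class, on 30, 4, 35 and 18 UMIs, which was 2.17 ± 0.67 with an adjusted p of 0.142 (edgeR), and 0.87 without cluster 13.

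Late iNKT1 markers moved with these values. The summed level of the 8 late iNKT1 genes (Gzma, Gzmb, Ccl5, Fcer1g, Ly6c2, Klre1, Klra5 and Klrg1), with Klrg1 at 0 in Hivep3-/- replicate 2 and no other gene of the list at 0, was 104 and 176 in C57BL/6 cycling-like cells and 1625 and 620.2 in Hivep3-/- cells. That of the 12 general iNKT1 markers (Tbx21, Ifng and Klrk1 among them, none at 0) was 742 and 794 against 2644 and 1930. The summed level of 6 double positive thymocyte markers (Rag1, Rag2, Cd8a, Cd8b1, Dntt and Arpp21) was 20.03 and 8.86 against 35.1 and 29.1, with Rag2 at 0 in C57BL/6 replicate 2 and in Hivep3-/- replicate 1, and Rag1 and Dntt at 0 in the former. The part of these markers in the Itga4 and Itgb1 differences was not tested. The remaining genes of the 9 were not called in this class, Emb among them at 108 and 97.4 against 104 and 143.5 (0.31, adjusted p = 0.394 with edgeR).

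In iNKT2-like cells Itga4 was the 1 gene of the 9 called, where 0.306% of the 9462 genes tested were called. It was at 8.79 and 9.88 in C57BL/6 and at 30.2 and 30.5 in Hivep3-/- cells. The replicates of a genotype lay close together and the genotypes did not overlap, with a difference of 1.75 ± 0.20 (adjusted p = 0.0158 with edgeR). Its size hardly moved when either Hivep3-/- library was left out (1.74 and 1.74), but the call was then lost, and it was kept in 13 of 15 settings (adjusted p from 1.58e-09 to 0.0981). In these cells the summed late iNKT1 level was lower in the Hivep3-/- libraries (97.6 and 151 against 83.0 and 81.7), and so was that of the double positive thymocyte list (7.15 and 9.90 against 4.44 and 4.97). The sum of the 12 general iNKT1 markers was higher there, like Itga4, at 1056 and 1253 against 1804 and 1682 with none at 0. The part of these lists in the Itga4 difference was not tested.

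A further 3 genes of the iNKT2-like class were separate between the genotypes and reached an unadjusted p below 0.05 without being called, where 8.73% of all genes tested in this class had such a p, called genes included. Cd44 was at 29.3 and 43.3 against 52.6 and 53.4 (0.60 ± 0.21, adjusted p = 0.434 with edgeR), and it passed the threshold when C57BL/6 replicate 2 was left out, at 0.88. Itgae was at 118 and 106 against 183 and 149.9 (0.60 ± 0.16, adjusted p = 0.272), and Emb at 114 and 85.7 against 123.5 and 148.5 (0.47 ± 0.18, adjusted p = 0.503). Itgb1 gave -0.17 in the same class, with 41.3 and 46.8 against 38.9 and 37.3. The median over the 8 genes tested was 0.35, beside 0.02 over all genes.

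None of the 7 genes tested in iNKT17-like cells was called by edgeR or by DESeq2, 2 had an unadjusted p below 0.05, and 0.0659% of the 7590 genes tested were called. The class was small, with 220, 126, 133 and 129 cells. Itga4 and Itga1 were too low to test in it. Itga4 was at 3.13 and 1.92 in C57BL/6 and at 7.55 and 4.45 in Hivep3-/- cells, without overlap but on 4, 2, 9 and 5 UMIs. Itgb1 was at 32.1 and 23.1 in C57BL/6 and 52.9 and 43.6 in Hivep3-/- cells, which did not overlap (0.82 ± 0.27, adjusted p = 0.627 with edgeR). Itgb7 was at 365 and 369 against 569.9 and 402 (0.43 ± 0.19, adjusted p = 0.867). Emb, whose level was highest in this class, was at 506 and 499 against 394 and 551, where the Hivep3-/- libraries enclosed the C57BL/6 libraries (-0.07, adjusted p = 0.983).

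Itga4 and Emb had their largest genotype differences in iNKT1-like cells, among the classes in which each was tested, and both were called there. These were 2 of 9 genes, where 0.741% of the 10251 genes tested in this class were called. Itga4 was at 11.3 and 13.4 CPM in C57BL/6 (12.3 ± 1.53, SD, n = 2) and at 82.2 and 68.3 in Hivep3-/- cells (75.3 ± 9.84, SD, n = 2). The means differed 6.10-fold, and the fitted difference was 2.61 ± 0.18 (adjusted p = 0.00119 with edgeR). It was called without each of the 4 libraries in turn, at 2.47 to 2.74, and in 15 of 16 settings in all (adjusted p from 3.32e-34 to 0.175).

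More cells carried an Itga4 UMI in the Hivep3-/- libraries at equal depth. After thinning to 2000 UMIs, 1.86% and 1.92% of C57BL/6 iNKT1-like cells had at least 1 Itga4 UMI, against 12.0% and 9.35% of Hivep3-/- cells (2.56%, 3.93%, 22.4% and 19.96% before thinning, with 217, 46, 30 and 17 shallower cells left out). For scale, the iNKT17-like class, which had the lowest Itga4 level, gave 0.465% and 0% against 0.758% and 0% after thinning. iNKT2-like cells gave 2.45% and 2.18% against 6.17% and 5.15%.

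Emb in iNKT1-like cells was at 5.70 and 1.995 in C57BL/6 (3.85 ± 2.62, SD, n = 2), from 41 and 11 UMIs, and at 17.6 and 24.3 in Hivep3-/- cells (20.9 ± 4.78, SD, n = 2), from 209 and 195 UMIs. The means differed 5.44-fold, and the fitted difference was 2.37 ± 0.38 (adjusted p = 0.0328 with edgeR). The Hivep3-/- level in iNKT1-like cells was still below that of each of the other 4 classes in the same libraries. The Emb difference was 3.37 without C57BL/6 replicate 1 and 1.86 to 2.60 without each of the other libraries, called each time. The call was lost with the other cell filter and with the adhesion genes kept for clustering, and it was kept in 13 of 16 settings (adjusted p from 4.05e-17 to 0.583).

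Another 4 genes of the iNKT1-like class were higher in both Hivep3-/- libraries than in both C57BL/6 libraries, with unadjusted p-values below 0.05 and no call, where 8.28% of all genes tested had such a p, called genes included. Itgb1 was at 145 and 160.1 against 294 and 236 (0.79 ± 0.15, adjusted p = 0.0683 with edgeR), which DESeq2 called and edgeR called without either C57BL/6 replicate 2 (0.86) or Hivep3-/- replicate 2 (0.94). Itgae was at 242 and 230.3 against 425 and 348 (0.70 ± 0.15, adjusted p = 0.0923 with edgeR), which DESeq2 also called, as edgeR did without Hivep3-/- replicate 2 (0.84). The partner of both Itgae and Itga4, Itgb7, was at 306 and 271 against 470.2 and 352 (0.51 ± 0.17, adjusted p = 0.385).

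Itga1 was near 0 in the other named classes. In iNKT1-like cells it was at 91.7 and 98.3 against 126 and 113 (0.33 ± 0.14, adjusted p = 0.557 with edgeR). The ratio of means was 1.26. Cd44 was at 164 and 149 against 120.0 and 152.5, Itgal at 169.5 and 222 against 186 and 165, and Itgb2 at 289 and 329 against 369 and 318, and the genotypes overlapped for all 3 of these. The median log2 difference over the 9 genes was 0.51, beside -0.0048 over all genes tested.

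**Figure D2:**
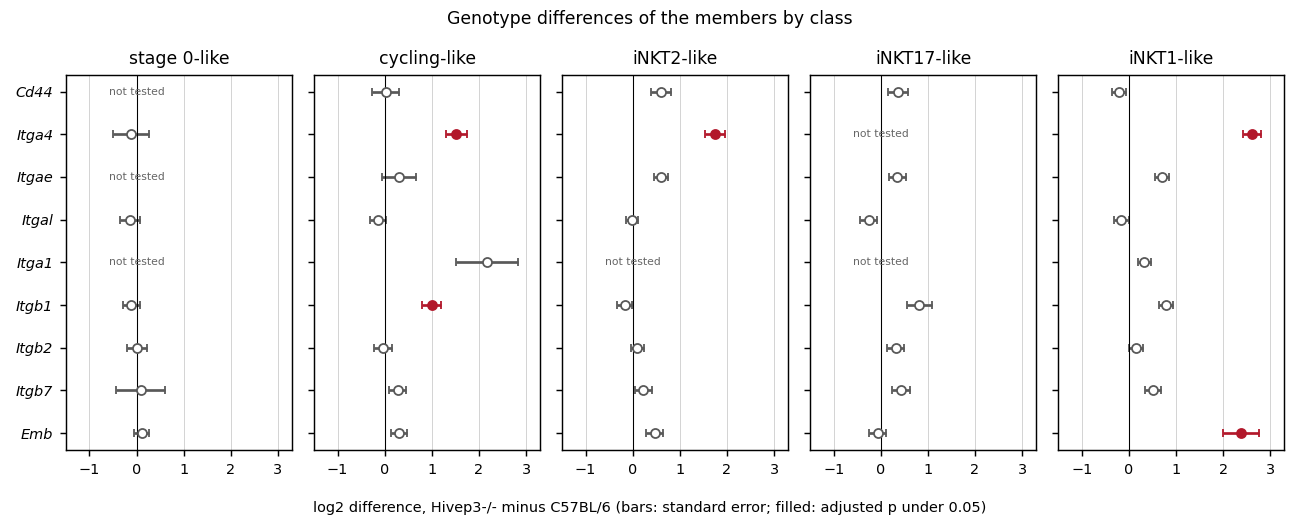
Log2 difference (Hivep3-/- minus C57BL/6) of each gene in each class from edgeR's fit on 2 against 2 libraries. Bars are standard errors, filled points have an adjusted p below 0.05, and genes too low to test are marked. Itga4 is filled in the cycling-, iNKT2- and iNKT1-like classes (1.52, 1.75 and 2.61), Itgb1 in the cycling-like and Emb in the iNKT1-like class (0.99 and 2.37).

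The iNKT1-like class joined cluster 0 (led by Fgl2, Rgs1 and Klrc1) and cluster 2 (led by Ccl5 and Gzma), and its makeup differed. Cluster 2 made up 20.1% and 20.2% of the class in C57BL/6 and 42.1% and 45.6% in Hivep3-/- cells, and the summed late iNKT1 level in the class was 3968 and 4983 against 7770 and 8440, while that of the 12 general iNKT1 markers was 9124 and 9938 against 10840 and 10880. Each cluster was therefore also tested alone. In cluster 2 Itga4 was at 34.2 and 18.0 against 161 and 123 (2.39 ± 0.26, adjusted p = 0.00628 with edgeR) and was called. Emb gave 7 and 0 UMIs against 146 and 154, or 4.89 and 0 against 29.9 and 42.2 CPM, and was called as well (adjusted p = 0.0268). The 0 in C57BL/6 replicate 2, of 1230472 UMIs, allows up to 2.71 CPM. These were 2 of 9 genes, where 0.266% of the 9039 genes tested in cluster 2 were called.

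In cluster 0, 0 of the 9 genes were called by edgeR, 4 had an unadjusted p below 0.05, DESeq2 was not run on single clusters, and 0.275% of the 9817 genes tested were called. The Hivep3-/- levels of Itga4 were still above those of C57BL/6 without overlap, at 28.2 and 23.4 against 5.66 and 12.3 (1.56 ± 0.33, adjusted p = 0.175 with edgeR). Emb gave 1.09 (adjusted p = 0.583), with levels of 6.01 and 2.51 against 9.25 and 9.58. Itgae gave 0.95 in cluster 0 (adjusted p = 0.083) and 0.16 in cluster 2 (adjusted p = 0.977 with edgeR), beside 0.70 in the whole class. Itgb1 gave 0.42 in cluster 0 (adjusted p = 0.618) and 0.58 in cluster 2 (adjusted p = 0.493), both below its 0.79 in the whole class. Whether the genotype difference was larger in cluster 2 than in cluster 0 was not tested.

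The summed level of the list of double positive thymocyte markers was higher in Hivep3-/- iNKT1-like cells, like Emb and Itga4, but its defining genes were not. Of the 6 genes of that list, the defining Rag1, Rag2 and Arpp21 were at 0 in both Hivep3-/- libraries, and Cd8a, Cd8b1 and Dntt were detected. In C57BL/6 replicate 1 Rag2 and Arpp21 were at 0 and Rag1 was detected. In C57BL/6 replicate 2 Rag1, Rag2, Dntt and Arpp21 were at 0. The summed level of the list was 3.45 and 4.15 in C57BL/6 and 19.6 and 26.5 in Hivep3-/- cells of the class, and in cluster 2 it was 3.15 and 8.94 against 36.4 and 50.3. In stage 0-like cells the same list summed to 122 and 119 against 104 and 169. Its part in the Emb and Itga4 differences was not tested.

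Unnamed clusters gave the same direction for Itga4. In cluster 3 (led by Klra3, Izumo1r and Cxcr3) it was at 4.59 and 6.18 against 62.8 and 36.2 CPM (3.23 ± 0.36, adjusted p = 0.0292 with edgeR), the 1 gene of 9 called where 0.194% of 8777 genes were. That call was lost without either Hivep3-/- library, at 2.76 and 3.53. In cluster 4 (led by Gzmb, Pcsk4 and Srm) Itga4 was at 9.92 and 15.2 against 47.0 and 52.0 (1.92 ± 0.25, adjusted p = 0.0056).

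Emb was the other gene called in cluster 4, at 3.97 and 2.12 against 18.6 and 42.5 (3.35 ± 0.53, adjusted p = 0.0171 with edgeR), where 0.514% of 9142 genes were called. Without Hivep3-/- replicate 2 the Emb value was 2.68, still called. In cluster 3 it was at 13.4 and 6.999 against 33.6 and 56.6, without overlap and without a call (2.12, adjusted p = 0.156). In the interferon-response cluster 8 (led by Ifit3) none of the 9 genes was called by edgeR, 4 had an unadjusted p below 0.05, and 0.217% of 6902 genes were called. Itga4 was there at 4.99 and 8.65 against 30.7 and 37.8 (2.28 ± 0.41, adjusted p = 0.0535), while the Emb values overlapped.

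Cluster 5 of the cycling-like cells (led by Igfbp4, Mcm3 and Ung) had Itga4 as its 1 called gene of the 9, where 2.62% of 9494 genes were called. Itga4 was there at 6.55 and 9.01 against 20.8 and 31.2 (1.81 ± 0.29, adjusted p = 0.0195 with edgeR). The other cycling-like clusters were too small to test in at least 1 library. Itga4 was at 9.52 and 12.3 against 25.6 and 28.8 in cluster 10, but in cluster 11 it was at 9.35 and 10.7 in C57BL/6 and at 0 and 10.4 in Hivep3-/- cells, on 0 and 18 UMIs, so the genotypes overlapped there. The 0 allows up to 6.55 CPM. Cluster 7 (led by Tnni1, Igfbp4 and Htra3) had 29 cells in C57BL/6 replicate 2, under the minimum of 50, and was not tested. Its Emb level was 79.0 and 69.9 against 172 and 210.2 and its Itga4 level 11.4 and 33.6 against 48.5 and 50.3.

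**Figure D3:**
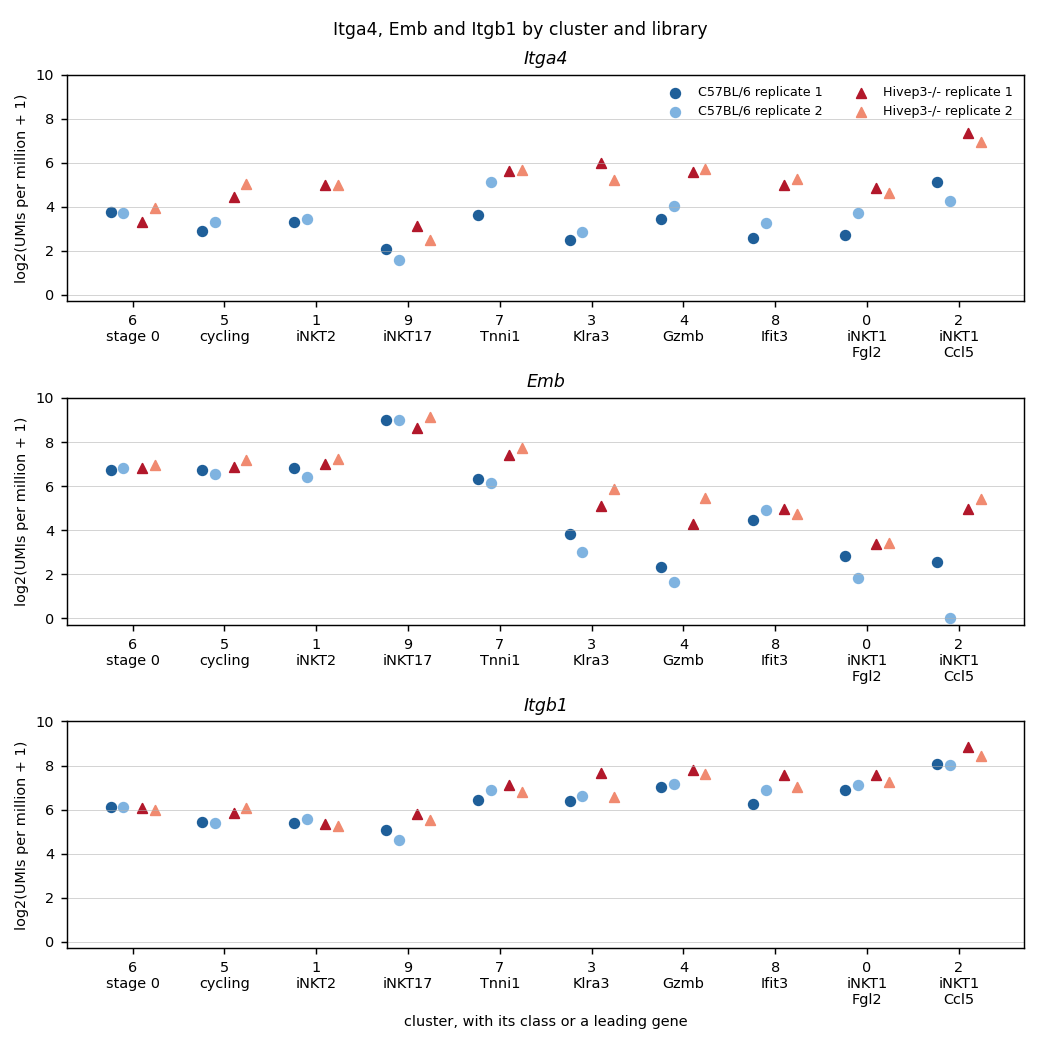
Levels of Itga4, Emb and Itgb1 as log2(CPM + 1) in 10 clusters, labelled by number with their class or a leading gene. Circles are C57BL/6 and triangles Hivep3-/- libraries. The Hivep3-/- points of Itga4 lie above the C57BL/6 points in every cluster shown except the stage 0-like cluster 6, and those of Emb in every cluster shown except the iNKT17-like cluster 9 and cluster 8, with 0 UMIs in C57BL/6 replicate 2 of cluster 2. For Emb in cluster 6 the nearest points were 111.7 and 111.9 CPM. With the scaling by class the genotypes overlapped in these same cells.

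Whether the genotype difference itself changed from class to class was tested as an interaction. Against stage 0-like cells, the difference in iNKT1-like cells was larger for 3 of the 9 genes, where 3.48% of 10533 genes were called. It was larger by 2.77 ± 0.40 for Itga4 (adjusted p = 3.81e-07 with edgeR), 2.21 ± 0.27 for Emb (adjusted p = 2.86e-09) and 0.92 ± 0.17 for Itgb1 (adjusted p = 0.000169). All 3 were called without each library in turn. The Emb value was 3.32 without C57BL/6 replicate 1 and the Itgb1 call was lost without the correction between libraries. Cd44 (1.58, adjusted p = 0.149) and Itgae (3.13, adjusted p = 0.095) were not called, on 1 to 12 UMIs per library in the stage 0-like class.

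Against iNKT2-like cells, 6 of the 9 genes had a called interaction, where 5.07% of 10633 genes were called. Itgb1 (0.99 ± 0.13, adjusted p = 1.44e-05 with edgeR) and Emb (1.91 ± 0.23, adjusted p = 2.19e-06) had a larger difference in iNKT1-like cells and were called in all 13 alternative settings, with Emb at 2.70 without C57BL/6 replicate 1 and at 1.29 and 2.90 at resolutions 0.4 and 1.2. The iNKT1-like side of these interactions is the whole class, in which the share of cluster 2 differed between the genotypes. Cd44 went the other way (-0.86 ± 0.17, adjusted p = 0.00157): the Hivep3-/- level was above C57BL/6 in iNKT2-like cells and not in iNKT1-like cells. The Cd44 value was -0.43 and not called without C57BL/6 replicate 1.

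The other 3 interactions against iNKT2-like cells rested on less. Itga4 (0.91 ± 0.22, adjusted p = 0.0135 with edgeR) was not called without C57BL/6 replicate 1 (0.87) or without Hivep3-/- replicate 1 (0.77), and it shrank to 0.37 at resolution 1.2 and to 0.23 without the correction between libraries, not called in either. Itgb7 (0.31 ± 0.09, adjusted p = 0.0433) lost its call without each of the 4 libraries in turn, at 0.29 to 0.33, and was 0.15 without that correction. Itga1 (2.90 ± 0.86, adjusted p = 0.0475) rested on 21, 1, 1 and 1 UMIs in the iNKT2-like cells, and its value was 0.35 and not called without C57BL/6 replicate 1, and 2.83 and 2.96, not called, without Hivep3-/- replicate 1 or 2.

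The genes were also compared by how their levels moved together over 36 points, 9 clusters with at least 50 cells in every library times 4 libraries, on log2(CPM + 1) centred on each library. Points of 1 library share its depth and those of 1 cluster its cells, so Pearson's r is a description. Itgae and its partner Itgb7 had r = 0.94 and Itga1 and its partner Itgb1 r = 0.88. Itga4 followed Itgb1 (r = 0.75) more than Itgb7 (r = 0.14). The LFA-1 chains Itgal and Itgb2 had r = 0.53. Cd44 followed Itgae (r = 0.95) and Itgal (r = 0.92), and Emb ran against Itgb1 (r = -0.82) and Itga1 (r = -0.80).

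**Figure D4:**
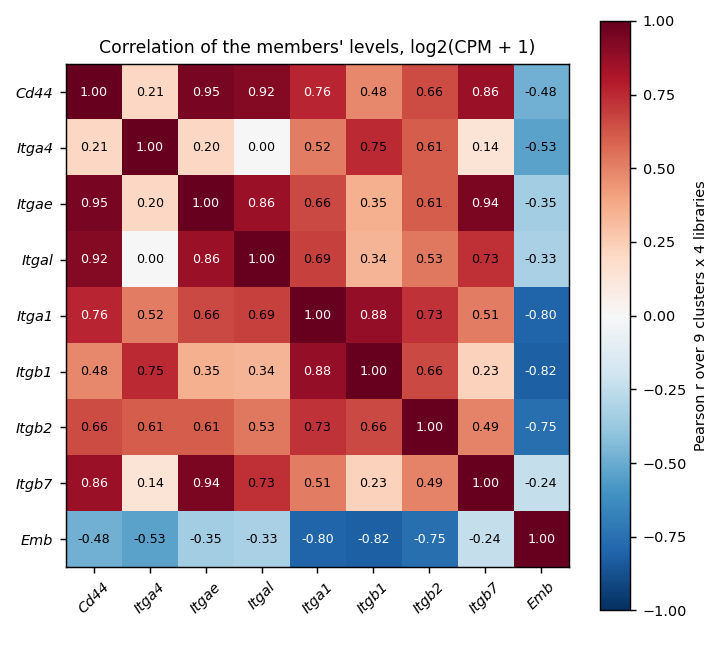
Pearson correlation between the levels of the 9 genes, as log2(CPM + 1), over 9 clusters in 4 libraries (36 points). Red marks positive and blue negative r. The pairs Itgae with Itgb7 and Itga1 with Itgb1 stand at 0.94 and 0.88, and the Emb row is negative except with itself.

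The nearest genes in pattern were sought for each among the 5264 genes whose mean level was 20 CPM or more. Cd44 was most like Serinc3, Apbb1ip and Ltb (r = 0.98 each). Itgae was most like Il7r (0.98), Itgal like Cd226 (0.96), Itga1 like Fgl2 (0.98), Itgb2 like Ugcg (0.95), Itgb7 like Lsp1 (0.98) and Itgb1 like Sgk1 (0.95). Emb reached 0.89 with Impa1, and Itga4 had the weakest match, 0.78 with Swap70, then 0.75 with Itgb1 and 0.74 with Klra1.

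The wider adhesion list held 79 further genes, of which 78 were in the count tables: other integrin chains, genes that activate integrins or tie them to actin, partners of CD44, kin and partners of embigin, and other adhesion receptors. Of the 14 other integrin alpha chains 2 to 6, by class, had enough counts to be tested, and of the 6 other beta chains 1 to 2. The highest level of another alpha chain was that of Itgav (the vitronectin receptor alpha chain) in iNKT2-like cells, at 19.96 and 16.0 CPM in C57BL/6 and 17.6 and 21.8 in Hivep3-/- cells. The highest of another beta chain was that of Itgb3 in iNKT17-like cells, at 72.0 and 41.4 against 50.4 and 21.4.

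Over all genes tested in iNKT1-like cells 0.741% were called. Of the 55 list genes tested in this class, 4 rose in Hivep3-/- cells and 1 fell. Among those that rose, Jaml, a junctional adhesion molecule of T cells, was at 105 and 119 against 230.3 and 237.5 CPM (1.05 ± 0.13, adjusted p = 0.0104 with edgeR), a call that was lost without C57BL/6 replicate 1, at 0.97. The nectin-like receptor gene Crtam had 2 and 1 UMIs against 77 and 60 (adjusted p = 0.00367), and Itgax, the CD11c alpha chain, 0 and 2 UMIs against 82 and 51 (adjusted p = 0.0104).

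The gene that fell was Itgb3, at 14.5 and 12.5 against 3.19 and 2.12 (-2.32 ± 0.29, adjusted p = 0.01 with edgeR). Beside Itgax, which myeloid cells also express, the 6 myeloid markers summed to 145 and 131 in C57BL/6 and 143 and 157 in Hivep3-/- iNKT1-like cells. Of these markers Adgre1 was at 0 in both C57BL/6 libraries, Lyz2, H2-Aa and Csf1r at 0 in C57BL/6 replicate 2, Csf1r at 0 in Hivep3-/- replicate 2, and none at 0 in Hivep3-/- replicate 1, and their part in the Itgax difference was not tested. None of the 21 tested genes of integrin activation and linkage to actin was called in this class, nor any of the 3 partners of CD44 (Ezr, Msn and Rdx) or the 4 tested kin and partners of embigin.

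Cycling-like cells had 5 of 53 tested list genes higher and 1 lower, where 3.29% of all genes tested were called. Crtam was at 0.772 and 1.21 against 11.5 and 21.6 (4.21 ± 0.43, adjusted p = 0.00323 with edgeR), and Cytip, which restrains LFA-1 through cytohesin-1, at 206 and 189 against 383 and 442 (1.11 ± 0.12, adjusted p = 0.00517). Jaml (12.2 and 14.9 against 36.3 and 40.3) and Cd2 (138 and 153 against 265 and 266) were called as well, and so was the tetraspanin gene Cd9. Cd47, the ligand of SIRP-alpha, was the gene that fell, at 297 and 344 against 175 and 184 (-0.79 ± 0.13, adjusted p = 0.021). Cd47 was not called without C57BL/6 replicate 2 (-0.68), nor Cd9 without C57BL/6 replicate 1 (0.72).

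In stage 0-like cells 1 of 48 tested list genes was called, where 0.364% of all genes tested were. This was Crtam, at 22.1 and 24.1 in C57BL/6 and at 81.3 and 77.9 in Hivep3-/- cells (1.80 ± 0.21, adjusted p = 0.00293 with edgeR). Crtam was thus higher in Hivep3-/- cells in 3 classes, at its highest level in stage 0-like cells. In iNKT2-like cells 0 of 48 tested list genes were called by edgeR, 6 had an unadjusted p below 0.05 and DESeq2 called 0. Over all genes tested there edgeR called 0.306%, and 8.73% had an unadjusted p below 0.05. In iNKT17-like cells 0 of 46 were called, with 4 below an unadjusted p of 0.05 and 0 by DESeq2. The shares over all genes tested in that class were 0.0659% called by edgeR and 5.51% below an unadjusted p of 0.05.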

How the data were processed

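Single-cell RNA-seq libraries of tetramer-positive thymocytes (2 C57BL/6 and 2 Hivep3-/- mice, 10x 5′ chemistry) were analysed from the deposited UMI counts. For each gene and barcode the authors had counted them by Cell Ranger 3.1.0 against mm10, and the submitters' processing notes also name Seurat 3.1.4. Columns of other samples numbered 0. The 9 genes, the adhesion list, the marker lists and the tests were chosen with earlier results of these data known.

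Cells with at least 500 and under 4100 genes, at least 1000 UMIs and under 6% mitochondrial UMIs were kept, 19647 of 22279 barcodes. Counts were log-normalised in Seurat 5.3.0 (R 4.3.3) and 2000 variable genes, without the 9 genes and the adhesion list, gave 30 principal components, which were corrected between libraries by mutual nearest neighbours and clustered with 20 neighbours at resolution 0.8. A cluster took a class name with 3 markers or more among its 20 leading genes, provided no other class had more among the first 10, a rule set after the data were seen. Scrublet called 10 cells (0.0509%), so the doublet caller did not work here; removing the 5% of cells with the highest scores was tried instead.

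Counts were summed per library and class. edgeR 4.0.16 (filterByExpr, TMM, quasi-likelihood test, two-sided) compared the genotypes in each class, and for the interactions with library as a block, p-values being adjusted by Benjamini and Hochberg across the genes of a comparison, with a threshold of 0.05. DESeq2 1.42.0, RLE factors, no low-count filter, a replicate block, other resolutions (0.4 and 1.2), another cell filter (at least 200 genes, under 10% mitochondrial UMIs), no correction between libraries, clusters alone and leaving out each library were the alternatives. The steps were tested on simulated data with 200 changed genes per comparison: 92.2% to 100.0% of 4-fold changes and 39.2% to 72.4% of 2-fold changes were recovered in the 5 classes, the lowest being the iNKT17-like and the stage 0-like class. The interactions against stage 0-like and iNKT2-like cells recovered 70.4% and 82.0% of 4-fold and 16.0% and 12.1% of 2-fold changes. The simulated spread between libraries was a fixed value shared by all genes, not the spread of these data. Named were the 9 genes in every comparison, list genes called in a class (at most 4 per class and direction by p), the integrin chain of highest level for each role in the list, and the 3 genes most correlated with each of the 9; Cd9 and the Itgb1 levels of cluster 13 were named after their values were seen. One list gene called in iNKT1-like cells is counted but not reported here. A count of 0 was given the level that 3 UMIs would have, which covers counting error only. For the shares of cells with a UMI, each cell was thinned to 2000 UMIs.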

Additional observations from a re-analysis of the deposited data

Results flagged for a closer look

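A genotype difference that changed from 1 class to another, by the test of the difference itself (edgeR interaction, 4 libraries), was found for 9 gene and class pairs. Over all genes tested, 3.48% were called against stage 0-like cells and 5.07% against iNKT2-like cells. On the log2 scale, the Hivep3-/- minus C57BL/6 difference was larger in iNKT1-like than in stage 0-like cells by 2.77 ± 0.40 for Itga4 (adjusted p = 3.81e-07), by 2.21 ± 0.27 for Emb (adjusted p = 2.86e-09) and by 0.92 ± 0.17 for Itgb1 (adjusted p = 0.000169).

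Against iNKT2-like cells the difference in iNKT1-like cells was larger by 0.91 ± 0.22 for Itga4 (edgeR adjusted p = 0.0135), 0.99 ± 0.13 for Itgb1 (1.44e-05), 1.91 ± 0.23 for Emb (2.19e-06), 0.31 ± 0.09 for Itgb7 (0.0433) and 2.90 ± 0.86 for Itga1 (0.0475, on 21, 1, 1 and 1 UMIs in the iNKT2-like cells). For Cd44 it was -0.86 ± 0.17 (0.00157), the 1 gene of the 6 with a larger difference in iNKT2-like cells. The Itga4, Cd44 and Itga1 values were not called without C57BL/6 replicate 1 (0.87, -0.43 and 0.35), the Itga4 value was 0.23 and not called without the correction between libraries, and Itgb7 was not called without any 1 of the 4 libraries (0.29 to 0.33).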

How the results depend on the processing

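The number of the 9 genes called in cycling-like cells was 2, and it was 1 at resolution 0.4, without the highest doublet scores, without cluster 13 (an alternative chosen after seeing the data) and in cluster 5 alone, 0 at resolution 1.2, and 1 to 3 when each library was left out. In iNKT2-like cells it was 1, with 2 under no low-count filter and 0 to 2 on leaving out a library. In iNKT1-like cells it was 2, with 4 under DESeq2, 5 without the low-count filter, 1 with the other cell filter, 1 with the adhesion genes kept for clustering, 0 in cluster 0 alone and 2 to 4 on leaving out a library. For the interaction against iNKT2-like cells it was 6, with 2 under DESeq2, 3 without the correction between libraries and 2 to 5 on leaving out a library; DESeq2 gave no adjusted p for Itga4 in either interaction, which is not counted as a lost call. The counts in stage 0-like and iNKT17-like cells (0) and for the interaction against stage 0-like cells (3, with 2 to 4 elsewhere) did not move by over 1.5 times.

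The sign turned for 4 values, none called: Itga4 in stage 0-like cells (-0.49 to 0.17 on leaving out a library), Emb in cycling-like cells (-0.039 without the correction between libraries), Emb in iNKT17-like cells (-0.33 to 0.14 on leaving out a library) and Itga1 in iNKT1-like cells (-0.10 without that correction). Of the other values of single genes under an alternative, 408 kept direction and side of the threshold, 16 passed it and 37 no longer did; the cause was not tested.

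The replicate numbers did not pair the mice by the labels, and same-numbered libraries correlated by 0.09 to 0.17 in the 5 classes, with 2 pairs. With the replicate block, 4 of the 9 genes were called in iNKT1-like and 3 in cycling-like cells. Of all genes tested with the block, 168 of 10251 and 616 of 10399 were called in these classes. Over all genes, the number called in iNKT1-like cells was 76, and 168 with the block (21 to 392 over all alternatives). It was 342 in cycling-like (45 to 1083), 29 in iNKT2-like (2 to 355), 5 in iNKT17-like (4 to 92) and 32 in stage 0-like cells (12 to 317), and 367 (100 to 435) and 539 (104 to 697) for the interactions against stage 0-like and iNKT2-like cells. In the simulation with 2 libraries a genotype, most 4-fold changes but fewer 2-fold changes were recovered, and few 2-fold changes in the interactions. Genes not called may therefore still differ.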
